A study of Mus musculus with 13 samples.

Results

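The mitochondrial ribosomal protein genes were taken as the protein-coding mouse genes (build mm10) whose symbol starts with Mrpl or Mrps followed by a digit, which gave 78 of the 21887 protein-coding genes of the RefSeq annotation (GRCm38.p6), 49 named Mrpl and 29 named Mrps. They are spread over 17 chromosomes. For each gene, peaks of the histone mark H3K27ac and of the co-repressors NCoR and SMRT were counted where the peak centre lay within 1 kb of either annotated gene end, in all 12 deposited peak lists. The genes were split into 51 of the large and 27 of the small subunit. The split followed the symbol, except that Mrps18a and Mrps30 were placed in the large subunit by the position of their proteins. Mrps36 was counted in the small subunit by its symbol only.

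The mitochondrial ribosome translates the few messages of the mitochondrial genome, which encode core subunits of the oxidative phosphorylation complexes. All of its proteins are encoded in the nucleus, made in the cytosol and imported. Some descend from bacterial ribosomal proteins and others were added during the evolution of mitochondria. Their promoters are of the housekeeping kind, and c-MYC, ETS family factors and NRF1 are known regulators of genes for mitochondrial biogenesis. NCoR and SMRT are large scaffold proteins that recruit and activate the histone deacetylase HDAC3, which removes acetyl groups from histones, and H3K27ac, acetylated lysine 27 of histone H3, marks promoters and enhancers in use.

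The series holds 13 chromatin immunoprecipitation (ChIP-seq) libraries, 1 per group. Embryonic stem cells (ESCs) were of the strain C57BL/6J, untreated at day 0. They gave NCoR, SMRT, H3K27ac and input libraries, and the input is not analysed here. Embryonic fibroblasts (MEFs) of the strain C57BL/6J-OG2, also untreated at day 0, gave 1 H3K27ac library. MEFs of the same strain that received OSKM, which stands for OCT4, SOX2, KLF4 and c-MYC, gave NCoR and SMRT libraries at day 9 without a further agent. OSKM cultures that also received a FLAG control plasmid or HDAC3-YF, a mutant of HDAC3 without deacetylase activity, gave H3K27ac libraries at days 5, 9 and 13. The labels describe the OSKM cells as transfected and their protocol as a single infection with virus, name their cell type only as presumed, and describe no sorting, so each OSKM library is a culture of cells that may differ in state. With 1 library per group there is no spread between replicates and no test of conditions, and the 95% Wilson intervals given below cover the counting of genes only.

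The H3K27ac lists held between 14251 and 26591 peaks and the co-repressor lists between 3687 and 5179, each peak 200 bp wide. The read depth behind them is unknown. Of 7 ESC marker genes, 4 had an H3K27ac peak at an end in ESCs (Klf2, Nanog, Tfcp2l1 and Zfp42). In MEFs 1 had one (Klf2), and in the 6 OSKM lists 1 or 2 did. Of 7 fibroblast marker genes, 5 had one in MEFs (Col1a1, Col1a2, Fbn1, Thy1 and Twist2) and 0 in ESCs, and between 1 and 3 had one in the 6 OSKM lists. Of 5 endothelial and blood markers, 2 had one in ESCs (Pecam1 and Spi1) and 2 in MEFs (Kdr and Spi1), with 0 or 1 in the OSKM lists. Over all protein-coding genes the share was 48.6% in ESCs and 48.2% in MEFs, so counts this small say little about cell identity.

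Promoter sequences from RefSeq, 250 bases before to 50 after a start site, were given for 69 of the 78 genes and for 17492 protein-coding genes in all. The ETS motif CCGGAAG, searched on both strands, stood in 26 of the 69 promoters (37.7%, interval 27.2 to 49.5%), against 12.9% of all promoters and 25.2% of the promoters of genes that carried H3K27ac at an end in all 8 lists. The NRF1 motif, with any base in the middle of its palindrome, stood in 13 (18.8%, 11.4 to 29.6%), against 7.17% and 14.6%, and the exact palindrome, which this includes and which is shown in capitals below, in 3 (4.35%), against 1.47% and 3.11%. The YY1 motif AAGATGG also stood in 13 (18.8%), against 7.18% and 9.97%. The NF-Y motif CCAAT stood in 27 (39.1%), against 42.3% and 41.0%. The E-box CACGTG, which MYC binds, stood in 5 (7.25%, 3.13 to 15.9%), against 8.91% of all promoters and 12.3% of those always acetylated. The median GC content of the promoters was 58.7%, against 56.3% over all and 62.3% over those always acetylated. So the shares with ETS, NRF1 and YY1 motifs lay above those of promoters at large. Beside always acetylated genes the intervals of ETS and YY1 still lay above the share, and that of NRF1 included it.

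The sequences below show in capitals the 1 motif named for each, and leave any other in lower case, 5' to 3' on the strand of the gene, up to the base before the start site. They were chosen, after their values were seen, as the E-box and NRF1 palindrome promoters with a day 9 co-repressor site, with 3 ETS promoters beside them. The first 4 run over 130 bases: Mrpl20 (chr4:155802748-155802877, plus strand, E-box), Mrpl39 (chr16:84735245-84735374, minus strand, NRF1 palindrome), Mrps18a (chr17:46110874-46111003, plus strand, ETS) and Mrpl52 (chr14:54426779-54426908, plus strand, ETS on the other strand).
Mrpl20: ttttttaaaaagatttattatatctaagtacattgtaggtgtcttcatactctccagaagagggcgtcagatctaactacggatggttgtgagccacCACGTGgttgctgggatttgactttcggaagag
Mrpl39: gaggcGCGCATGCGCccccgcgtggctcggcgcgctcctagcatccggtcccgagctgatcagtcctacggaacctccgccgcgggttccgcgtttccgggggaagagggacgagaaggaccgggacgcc
Mrps18a: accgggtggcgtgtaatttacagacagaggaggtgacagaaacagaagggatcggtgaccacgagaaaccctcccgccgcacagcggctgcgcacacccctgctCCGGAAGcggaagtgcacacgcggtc
Mrpl52: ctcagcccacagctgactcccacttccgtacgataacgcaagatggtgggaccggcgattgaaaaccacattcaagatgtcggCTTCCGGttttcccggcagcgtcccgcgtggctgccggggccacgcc
Shorter stretches of 30 bases around the motif follow for the E-boxes of Mrpl2 (chr17:46646078-46646107, plus strand), Mrpl36 (chr13:73330954-73330983, plus) and Mrpl37 (chr4:107067011-107067040, minus), for the NRF1 palindromes of Mrpl9 (chr3:94443298-94443327, plus) and Mrpl32 (chr13:14613105-14613134, minus), and for the first ETS motif of Mrpl53 (chr6:83109038-83109067, plus).
Mrpl2: actgccgcccgtCACGTGacccgagcaacc
Mrpl36: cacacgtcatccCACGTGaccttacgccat
Mrpl37: agcaagtttcttCACGTGtggcacttcaga
Mrpl9: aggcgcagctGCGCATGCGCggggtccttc
Mrpl32: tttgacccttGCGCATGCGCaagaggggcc
Mrpl53: ccgcggagccgCCGGAAGcggtccgttcca
Mrpl46 and Mrps11 are the only members that share a gene end within 1 kb, a large and a small subunit gene transcribed away from each other. Their start sites are separated by 41 bases (chr7:78783090-78783130, plus strand), shown here without capitals because none of the 6 motifs lies in them.
Mrpl46-Mrps11: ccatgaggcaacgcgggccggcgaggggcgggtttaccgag

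Most mitochondrial ribosomal protein genes carried H3K27ac in every cell population. In ESCs 68 of 78 (87.2%, interval 78.0 to 92.9%) had a peak at an end, where 48.6% of all protein-coding genes did. In MEFs the count was 70 (89.7%, 81.0 to 94.7%; background 48.2%). At day 5 the OSKM cultures gave 68 (FLAG) and 65 (HDAC3-YF) genes (87.2 and 83.3%; background 42.2 and 40.8%). The counts were 68 and 67 at day 9 (87.2 and 85.9%; background 43.1 and 42.1%), and 61 in each arm at day 13 (78.2%, 67.8 to 85.9%; background 42.6 and 43.9%). The day 13 shares were the lowest of the 8, and their intervals overlap those of the other libraries.

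**Figure D1:**
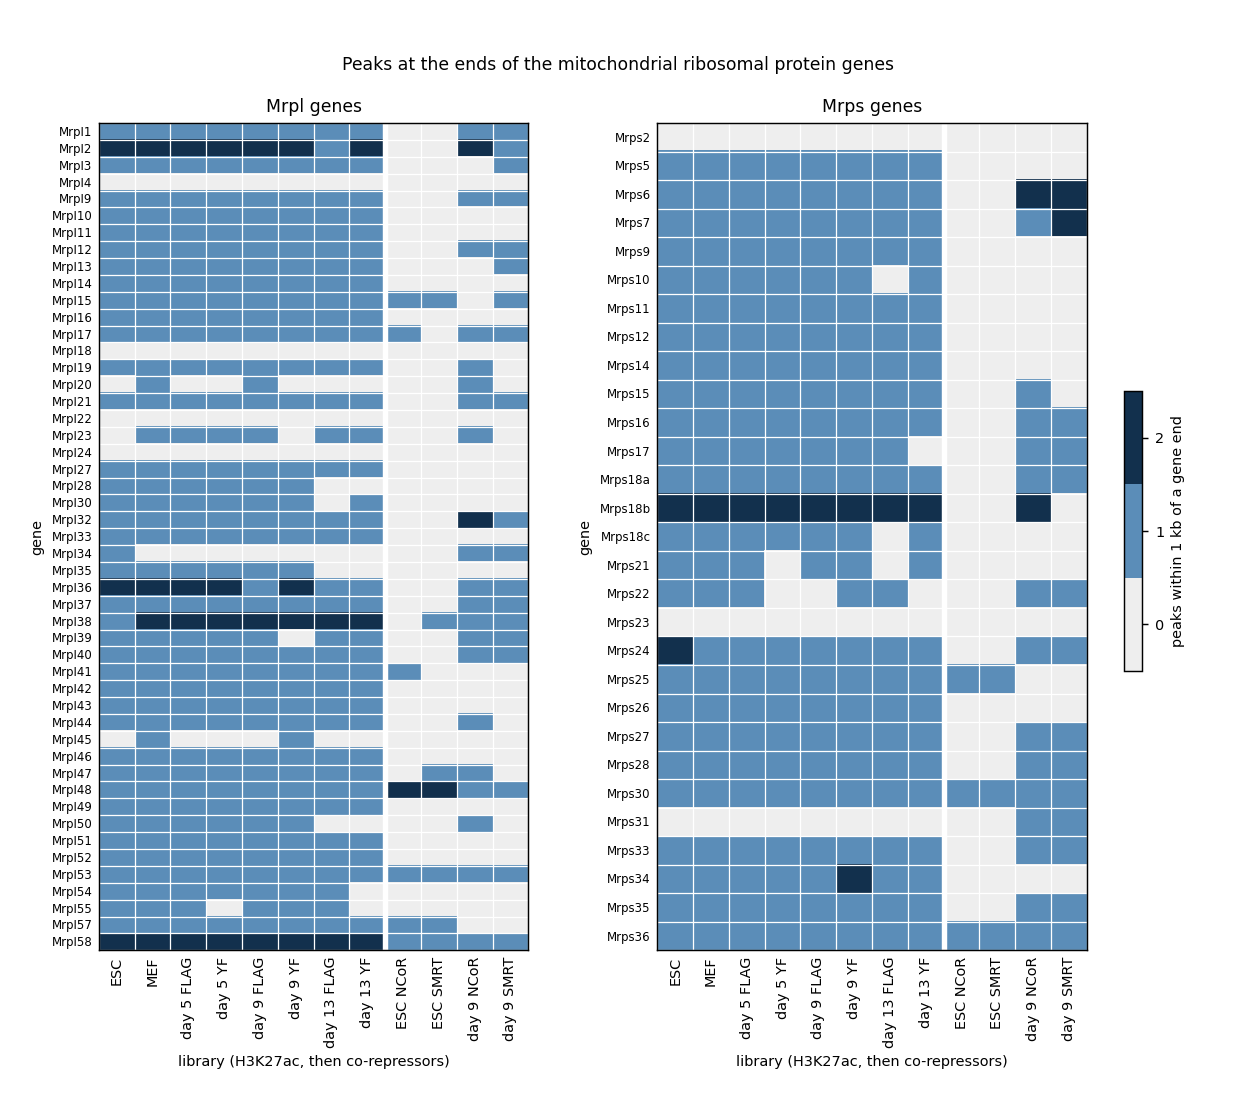
Number of H3K27ac, NCoR and SMRT peaks within 1 kb of a gene end (colour) for each of the 78 genes (rows, Mrpl left and Mrps right) in each of the 12 libraries (columns, the 8 H3K27ac libraries before the white line). Rows of genes with H3K27ac in all 8 libraries make up 55 of the 78, and the day 9 co-repressor columns are fuller than the ESC columns.

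A peak stood at an end in all 8 H3K27ac lists for 55 genes (70.5%, 59.6 to 79.5%), where the share over all protein-coding genes was 32.7%. At 16 genes the mark was in 1 to 7 lists (20.5%; background 24.4%), and at 7 in none (8.97%, 4.42 to 17.4%; background 42.9%). The number of peaks per gene was even. Summed over the 8 lists, 48 genes had exactly 8 peaks. The highest sums were 16 for Mrpl58, a peptidyl-tRNA hydrolase that rescues stalled ribosomes, and for Mrps18b, 15 for Mrpl2 and for Mrpl38, 13 for Mrpl36 and 9 for Mrps24 and Mrps34. Mrpl58 and Mrps18b had 2 peaks in each of the 8 lists, of which only 1 lay within 1 kb of the start site. Mrps18b, Mrpl2, Mrpl38, Mrpl36 and Mrps34 have an end of another gene within 1 kb, and the sums have no background.

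The genes with no H3K27ac at an annotated end in any list were Mrpl4, Mrpl18, Mrpl22, Mrpl24, Mrps2, Mrps23 and Mrps31, of which the first 4 and Mrps2 encode proteins with bacterial counterparts. For 6 of these 7 the promoter table places the start site inside the annotated span, between 891 bp (Mrps31) and 10282 bp (Mrps23) from the annotated end on that side. Around those start sites the mark was there. The nearest peak centre lay 57 to 152 bp from the start site of Mrps23 over the 8 lists, 94 to 284 bp from that of Mrpl24, 117 to 303 bp for Mrps31, 211 to 378 bp for Mrpl22, 257 to 603 bp for Mrpl18 and 250 to 901 bp for Mrps2. Mrpl4 has no promoter entry, and its nearest peak centre lay 1770 to 1870 bp from an annotated end.

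Counted within 1 kb of a start site instead, for the 69 genes that have one, 68 carried H3K27ac in ESCs (98.6%, 92.2 to 99.7%; background 52.3%) and 68 in MEFs (98.6%; background 52.5%). The gene without a peak was Mrpl20 in ESCs and Mrpl34 in MEFs. At day 5 the counts were 67 (FLAG) and 64 (HDAC3-YF; 97.1 and 92.8%; background 46.3 and 44.7%), and at day 9 they were 67 and 66 (97.1 and 95.7%; background 47 and 45.9%). At day 13 they were 59 and 60 (85.5%, 75.3 to 91.9%, and 87.0%, 77 to 93.0%; background 46.2 and 47.8%). No gene of the 69 lacked the mark in all 8 lists, and 55 had it in all of them (79.7%; background 36.5%). In ESCs and MEFs, then, acetylation was found at nearly every start site of this gene family, and at day 13 at fewer.

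ESCs and MEFs differed at 4 genes in the presence of a peak, and in its number at 2 upward (background 6.78%) and 4 downward (background 6.19%). Mrpl34 had a peak in ESCs only, with a score of 59.3, where 5.75% of all genes had a peak in ESCs only. Its nearest peak in the other 7 lists was 1339 to 10819 bp away. Mrpl20, Mrpl23 and Mrpl45 had a peak in MEFs only, where 5.35% of all genes did. Mrpl45 holds the ribosome at the inner membrane. At Mrpl20 and Mrpl23 the difference lay at the edge of the window. The nearest peak in the lists counted as without one was 1003 to 1078 bp from an end of Mrpl20 and 1010 to 1109 bp from an end of Mrpl23, and Mrpl23 was acetylated at its start site in all 8 lists. Mrpl45 had its peak, too, within 1 kb of the start site in ESCs.

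The deposited H3K27ac score, whose scale is not stated and which stops at 200, was used to order peaks within a list. In ESCs the best score at an end was at this ceiling for 41 of 68 genes (60.3%, interval 48.4 to 71.1%), against 51.4% of all genes with a peak and 93.2% of the cytosolic ribosomal protein genes. In MEFs it was 44 of 70 (62.9%), against 58.9% and 89.2%. In the FLAG library of day 5 it was 6 of 68 (8.82%, 4.11 to 17.9%), against 19.5% and 53.4%, and at day 9 it was 4 of 68 (5.88%, 2.31 to 14.2%), against 17% and 41.1%. In the HDAC3-YF libraries it was 5 of 65 at day 5 (7.69%, 3.33 to 16.8%), against 16.2% and 60.8%, and 6 of 67 at day 9 (8.96%, 4.17 to 18.2%), against 16.4% and 44.6%. At day 13 it was 1 of 61 in each arm (1.64%), against 2.44 and 2.66% of all genes. The median best score of the family was 69.1 in the day 5 FLAG library, against 61.3 over all genes with a peak. In the HDAC3-YF library of that day it was 52.0 (56.4). The FLAG and HDAC3-YF medians were 49.3 and 55.0 at day 9 (55.7 and 56.0) and 24 and 29.2 at day 13 (25 and 26.1). The mitochondrial ribosomal protein genes thus had ordinary scores in the OSKM lists. At days 5 and 9 their share at the ceiling was below that of all genes in both arms. The interval excluded the share of all genes with FLAG and included it with HDAC3-YF. The intervals of the arms overlap, so this sets no arm apart. The cytosolic family stood higher in each of the 8 lists by the share at the ceiling.

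**Figure D2:**
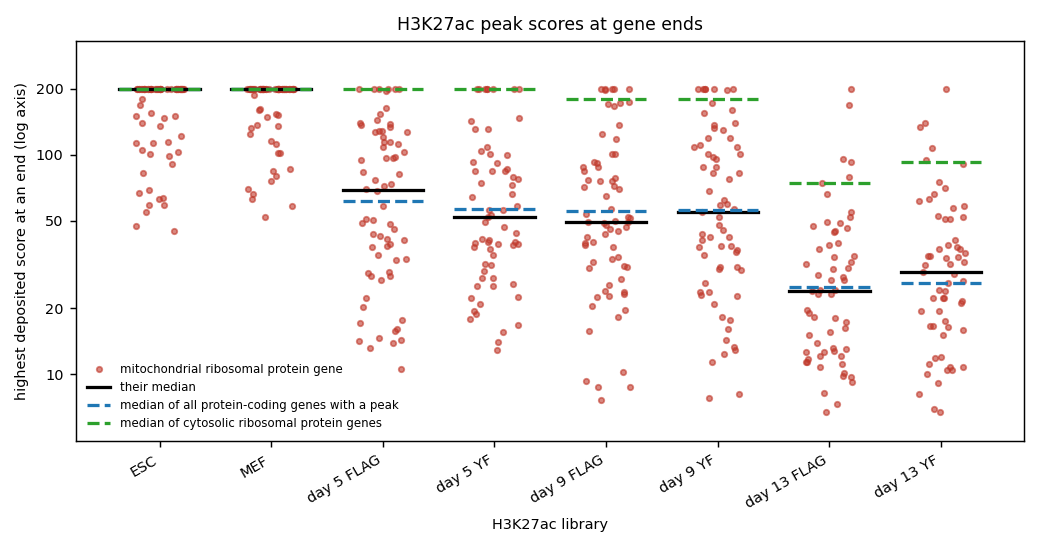
Highest deposited H3K27ac score at an end of each mitochondrial ribosomal protein gene with a peak (points, log axis) in the 8 libraries, with their median (black line) and the medians of all protein-coding genes with a peak and of cytosolic ribosomal protein genes (dashed lines). In ESCs and MEFs all 3 medians lie at the ceiling of 200, and at day 13 the medians of the mitochondrial family are 24 and 29.2.

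Between day 9 and day 13, 8 genes with a peak in the FLAG library had none at the later day, and 8 in the HDAC3-YF library. Of the 68 and 67 genes with a peak at day 9 these are 11.8% (interval 6.08 to 21.5%) and 11.9% (6.18 to 21.8%), close to the 10.2 and 9.66% of all marked genes and above the 1.37 and 1.35% of cytosolic ribosomal protein genes. With FLAG they were Mrpl20, Mrpl28, Mrpl30, Mrpl35, Mrpl50, Mrps10, Mrps18c and Mrps21. With HDAC3-YF they were Mrpl28, Mrpl35, Mrpl45, Mrpl50, Mrpl54, Mrpl55, Mrps17 and Mrps22. The lists share 3 genes, Mrpl28, Mrpl35 and Mrpl50, so that each share is 3 of 8. The same overlap was not counted over all genes, so whether 3 of 8 is ordinary is not known. Mrpl28 had scores of 149.6 in ESCs, 83.9 in MEFs, 28 and 21 at day 5 (FLAG, then HDAC3-YF), and 38.1 and 14.3 at day 9. Mrpl35 had 121.8, 75.7, 26.9, 25.3, 8.73 and 7.84 in the same order. Mrpl50 had 90.5, 160.2, 22.3, 27.4, 23.8 and 11.4. Within the day 9 lists Mrpl35 was near the bottom (percentiles 15.9 and 9.48), while Mrpl28 (60.8 and 34.7) and Mrpl50 (49.6 and 26.2) were above or about the middle with FLAG and lower with HDAC3-YF.

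The genes without a day 13 peak had lower scores at day 9 than those that kept one. With FLAG the median day 9 score was 24.7 for the 8 genes (8.73 to 38.1) and 53.0 for the 60 others (7.62 to 200). With HDAC3-YF it was 13.3 for the 8 (7.84 to 97.8) and 59.5 for the 59 others (12.9 to 200). The ranges overlap. The day 13 lists as a whole also held fewer peaks at the score ceiling, 1.67 and 2.11% of the list against 10.3 and 10.4% at day 9, and the part of this in the missing peaks was not tested. In the other direction Mrps22 had a peak with FLAG at day 13 and none at day 9, and Mrpl23 and Mrpl39 did so with HDAC3-YF (1.28 and 2.56% of the family; background 3.87 and 5.9%). From MEFs to day 5, 2 of the 70 genes with a peak had none with FLAG (2.86%, 0.787 to 9.83%; all marked genes 15.4%), namely Mrpl20 and Mrpl45, and 5 had none with HDAC3-YF (7.14%, 3.09 to 15.7%; 18.1%), these and Mrpl55, Mrps21 and Mrps22. In neither arm did a gene have a peak at day 5 and none in MEFs (background 1.48 and 1.35%). From day 5 to day 9 the FLAG libraries differed at Mrpl20, with a peak at day 9 only (1.28%; background 3.38%), and Mrps22, with one at day 5 only (1.28%; background 2.54%). The HDAC3-YF libraries differed at Mrpl45, Mrpl55, Mrps21 and Mrps22, at day 9 only (5.13%; background 3.77%), and Mrpl23 and Mrpl39, at day 5 only (2.56%; background 2.47%). Several of these differences lay at the edge of the window. Mrpl20 had its day 5 peak 1006 bp (FLAG) and 1078 bp (HDAC3-YF) from an end, and Mrpl45 had one 290 and 209 bp from its start site at day 5, 366 bp with FLAG and 187 bp with HDAC3-YF at day 9. Counted at start sites, 1 of 68 genes with a MEF peak had none at day 5 with FLAG (1.47%, 0.26 to 7.87%; background 14%) and 4 of 68 with HDAC3-YF (5.88%, 2.31 to 14.2%; background 16.6%). From day 9 to day 13 the start site counts were 9 of 67 (13.4%, 7.23 to 23.6%; background 9.54%) and 7 of 66 (10.6%, 5.23 to 20.3%; background 8.43%). In the top 50% of each list by score, 14 of 70 genes with a MEF peak had none at day 5 in each arm (20.0%, 12.3 to 30.8%; background 26.5 and 27.3%). Over the step from MEFs to day 5 the share was thus below that of marked genes at large with all peaks. This holds for peaks within 1 kb of an end or of a start site. With a 500 bp window the counts were 0 with FLAG and 8 with HDAC3-YF, without a background. In the top 50% the interval of the family included the share at large. Over the last step the intervals included the share at large.

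The co-repressors were found at few of these genes in ESCs and at about every other one at day 9. An NCoR peak stood at an end of 10 genes in ESCs (12.8%, interval 7.12 to 22%; background 11.3%) and of 38 at day 9 (48.7%, 37.9 to 59.6%; background 20%). For SMRT the counts were 10 (12.8%; background 12.6%) and 33 (42.3%, 32 to 53.4%; background 18.2%). Either protein stood at 12 genes in ESCs (15.4%, 9.03 to 25%; background 14.2%) and at 41 at day 9 (52.6%, 41.6 to 63.3%; background 21.5%). Both proteins stood at 8 genes in ESCs (10.3%; background 9.75%) and at 30 at day 9 (38.5%; background 16.6%). By gene, 9 had a site in both populations (11.5%; background 7.84%), 32 at day 9 only (41.0%, 30.8 to 52.1%; background 13.7%) and 3 in ESCs only (3.85%; background 6.38%). Within 1 kb of a start site, the NCoR counts of the 69 genes were 10 and 37 (14.5 and 53.6%; background 12.3 and 22%) and the SMRT counts 9 and 30 (13 and 43.5%; background 13.7 and 19.9%). The ESC share was thus at the level of all genes, and the day 9 share above it.

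The day 9 sites were mostly at acetylated genes, as they were in the genome at large. Among the 7160 protein-coding genes with H3K27ac at an end in all 8 lists, 56% had a day 9 site, and of the 55 mitochondrial ribosomal protein genes of that kind 33 did (60.0%, interval 46.8 to 71.9%). In ESCs the shares were 32.8% and 12 of 55 (21.8%, 12.9 to 34.4%). Singly at day 9, NCoR stood at 30 of the 55 (54.5%; background 52.8%) and SMRT at 28 (50.9%; background 47.9%), with both at 25 (45.5%; background 44.7%). In ESCs each stood at 10 (18.2%; background 26.9% for NCoR and 29.5% for SMRT), with both at 8 (14.5%; background 23.6%) and in ESCs only at 3 (5.45%; background 10.9%). Sites at day 9 only made 34.1% and 24 of 55 (43.6%, 31.4 to 56.7%), and sites in both populations 21.9% and 9 of 55 (16.4%, 8.86 to 28.3%). The intervals given here include the shares of acetylated genes at large. Beside those genes the day 9 count of the family was not set apart. All 12 of its ESC sites were at always acetylated genes, as were 2346 of the 3113 over all protein-coding genes. The day 9 sites outside the 55 were at Mrpl20, Mrpl23, Mrpl34, Mrpl39, Mrpl50, Mrps17, Mrps22 and Mrps31.

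**Figure D3:**
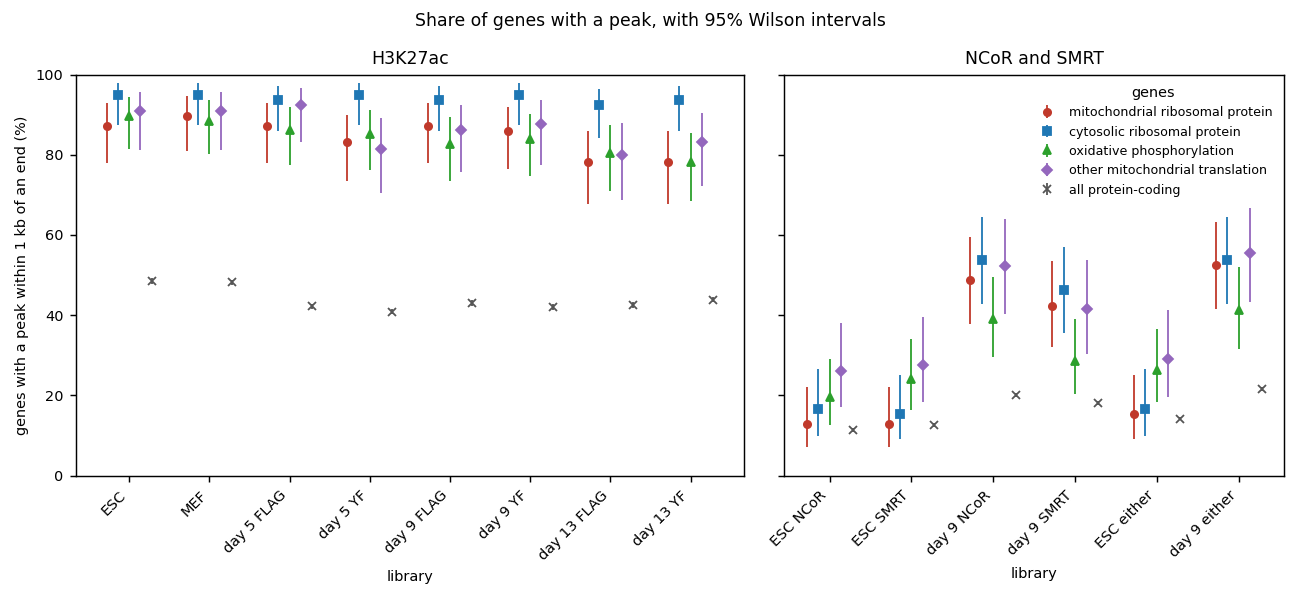
Share of genes with a peak within 1 kb of an end (y axis, percent) in each library for the mitochondrial ribosomal protein genes, 3 related gene groups and all protein-coding genes, with 95% Wilson intervals as bars; "either" is a peak of NCoR or SMRT. The mitochondrial ribosomal protein genes lie at 78.2 to 89.7% for H3K27ac and go from 15.4% in ESCs to 52.6% at day 9 for either co-repressor, with intervals that overlap those of the related groups at day 9.

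The 12 genes with an ESC site were Mrpl15, Mrpl17, Mrpl38, Mrpl41, Mrpl47, Mrpl48, Mrpl53, Mrpl57, Mrpl58, Mrps25, Mrps30 and Mrps36. Mrps36 has a place in the alpha-ketoglutarate dehydrogenase complex, and Mrpl41 is known for a role in apoptosis. Mrpl41, Mrpl57 and Mrps25 were without a site at day 9. At Mrpl57 both proteins shared 1 interval centred 158 bp past the start site, at Mrps25 79 bp past it, and Mrpl41 had an NCoR peak alone, 177 bp past it. Mrpl48 had 2 intervals, 58 bp before and 311 bp past its outermost start site, in both ESC lists. In each of the 12 the ESC site lay within 1 kb of an H3K27ac peak of ESCs, since all 11 NCoR and all 11 SMRT peaks did (whole lists 76.1 and 71.9%). The whole lists hold peaks wherever they lie, while those of the family were taken at gene ends. These shares are thus not of like peaks, here and below.

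At the 9 genes with a site in both populations the intervals overlapped in 5 and lay apart in 4. The shortest offset between an ESC and a day 9 interval was 7 bp at Mrpl48, 18 bp at Mrpl58, 20 bp at Mrpl17, 98 bp at Mrpl15 and 162 bp at Mrps36. It was 224 bp at Mrpl38, 280 bp at Mrpl53, 380 bp at Mrpl47 and 419 bp at Mrps30. At Mrpl53 the ESC interval was centred 270 bp past the start site and the day 9 interval 10 bp before it, over both of its ETS motifs. At Mrps30 the ESC peaks were centred 540 bp (NCoR) and 659 bp (SMRT) past the start site and the day 9 peak of both proteins 121 bp past it. Of the 42 day 9 NCoR peaks at the family 4 overlapped an ESC NCoR peak (9.52%; whole list 17.9%), and of the 35 SMRT peaks 4 overlapped an ESC SMRT peak (11.4%; 19%). The whole lists again hold peaks wherever they lie.

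Both co-repressors stood at an end at day 9, in the order of the genes, at Mrpl1, Mrpl2, Mrpl9, Mrpl12, Mrpl17, Mrpl21, Mrpl32, Mrpl34, Mrpl36, Mrpl37, Mrpl38 and Mrpl39 and at 18 further genes. Mrpl12 encodes the flexible stalk protein that contacts translation factors. At Mrpl1, Mrpl12, Mrpl21 and Mrpl39 a single interval in both lists was centred within 100 bp of the start site, 9 bp and 54 bp past it at the former pair and 28 bp and 53 bp before it at the latter. Mrpl2 and Mrpl32 had such an interval too, 19 and 25 bp past a start site, and a further NCoR peak at -590 and -337 bp from one. Mrpl2 has more than 1 start site, and each of its distances is from the nearest. At Mrpl9 the proteins stood at opposite ends, NCoR 81 bp before the start site and SMRT 4751 bp past it. Mrps6 had 2 intervals in both lists, and Mrps7 had 1 in both and another in the SMRT list alone. The NCoR and SMRT lists of a population carry the same score at every interval they share, so they are parts of 1 joint list and sharing between them is no independent evidence. At the family 29 of 48 day 9 intervals were in both lists (60.4%; whole list 66.3%), 13 in the NCoR list only and 6 in the SMRT list only. Over the whole list 1176 of 6036 were in the NCoR list only and 857 in the SMRT list only.

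Day 9 co-repressor peaks of the family had their centres nearer to the start site, by the median, than those of all genes. For the 69 genes with a start site, the median absolute distance of the peak centre was 124 bp for NCoR (40 peaks) and 100 bp for SMRT (32 peaks), against 176 and 185 bp over all genes. The 200 bp interval covered the start site in 42.5% of the NCoR and 50.0% of the SMRT peaks, against 25.6 and 22.1%. In ESCs, with 11 and 10 peaks, the median distances were 270 and 290 bp, against 256 and 268 bp. H3K27ac peaks lay at median distances of 174 to 209 bp in the 8 lists, against 203 to 221 bp. The distance was measured on peaks that share promoters with neighbouring genes, and no test was made. The day 9 peaks overlapped an H3K27ac peak of the day 9 FLAG library in 26 of 42 cases for NCoR (61.9%; whole list 50.7%) and 26 of 35 for SMRT (74.3%; 50.9%), and H3K27ac was within 1 kb of 95.2 and 91.4% of them (89.9 and 86.9%). The whole lists hold peaks wherever they lie and the family only peaks at gene ends, and peaks at the ends of all genes were not counted for this.

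**Figure D4:**
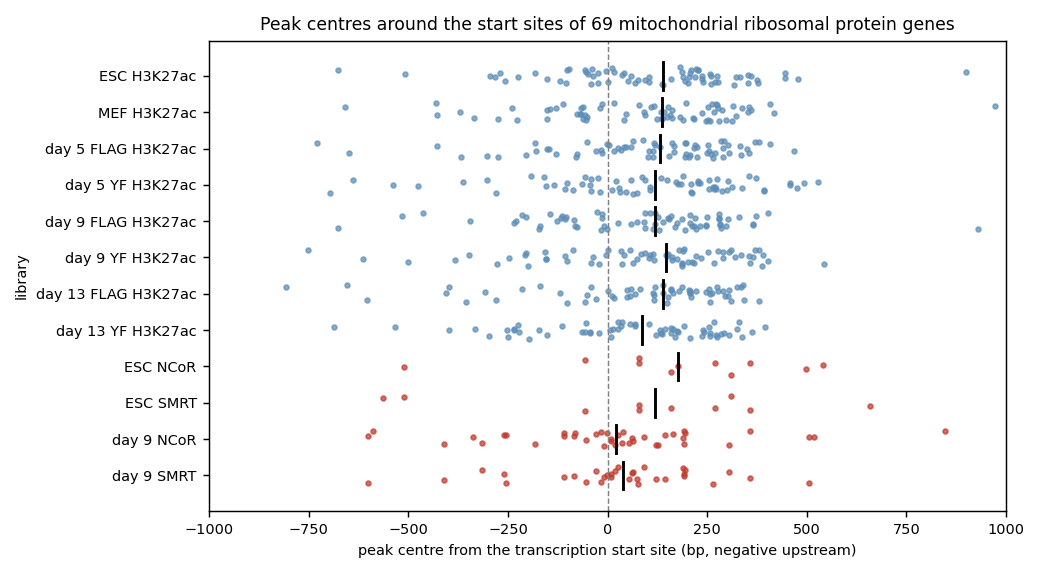
Distance of each peak centre from the start site (x axis, bp, negative upstream) for the 69 mitochondrial ribosomal protein genes with a start site, by library, H3K27ac in blue and co-repressors in red, with the median as a black bar. Day 9 NCoR and SMRT peaks have medians of 22 and 40 bp past the start site, and H3K27ac peaks of 87 to 148 bp.

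The motifs shown above can be set beside these intervals. None of the 4 E-boxes in promoters with a day 9 site (Mrpl2, Mrpl20, Mrpl36 and Mrpl37) lay inside a day 9 co-repressor interval. The NCoR peak of Mrpl20 was centred 848 bp past the start site, and its E-box starts 33 bases before it. The NRF1 palindromes of Mrpl9 and Mrpl39 lay inside a day 9 interval and that of Mrpl32 did not. For this comparison a site was counted within 1 kb of a start site, where 38 of the 69 genes had one at day 9 and 31 had none. Of 18 ETS motifs at 15 of the 38 genes, 11 at 9 genes lay inside an interval, among them those of Mrps18a, Mrps23 and Mrpl53. Of the other motifs at the 38 genes, 7 of 25 NF-Y, 3 of 6 NRF1 (any middle base) and 2 of 7 YY1 motifs lay inside one. The ETS motif stood in 15 of the 38 promoters with a site and in 11 of the 31 without, among them Mrpl52, shown above. For the E-box the counts were 4 of 38 and 1 of 31, and for NF-Y 17 and 10. For NRF1 they were 6 and 7, and for YY1 7 and 6. No test of these splits was made, and motifs inside intervals were not counted over all promoters.

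HDAC3-YF and FLAG libraries differed at few of these genes. At 63 of the 78 the number of H3K27ac peaks at the ends was the same in both arms on all 3 days. This count was not made over all protein-coding genes, so it has no background. A peak with FLAG and none with HDAC3-YF was found at 3 genes at day 5 (3.85%; background 3.5%), 3 at day 9 (3.85%; background 3.51%) and 4 at day 13 (5.13%; background 4.16%). A peak with HDAC3-YF and none with FLAG was found at 0 genes at day 5 (background 2.08%), 2 at day 9 (2.56%; background 2.54%) and 4 at day 13 (5.13%; background 5.54%). Among the genes marked with FLAG, the share without a peak with HDAC3-YF was 4.41, 4.41 and 6.56% on the 3 days (highest upper bound 15.7%), against 8.3, 8.16 and 9.78% of all marked genes. Counted by number, peaks were more with HDAC3-YF at 0, 4 and 5 genes (background 2.52, 3.02 and 6.05%) and fewer at 3, 3 and 4 (background 3.92, 4.1 and 4.66%), and the median difference was 0 on each day. With all peaks and the 1 kb window the counts of single days were close to the share over all genes, but other settings changed this. In the top 50% of each list by score, a peak with HDAC3-YF only was at 5, 8 and 8 genes on the 3 days (6.41, 10.3 and 10.3%; background 2.53, 2.24 and 4.56%) and a peak with FLAG only at 5, 10 and 1 (6.41, 12.8 and 1.28%; background 2.83, 3.48 and 4.18%). There the intervals lay above the background for HDAC3-YF only on all 3 days (2.77 to 14.1% at day 5, 5.29 to 19% at days 9 and 13) and for FLAG only at day 9 (7.12 to 22%). With a 500 bp window a peak with HDAC3-YF only was at 1, 3 and 4 genes (background 2.42, 3.26 and 5.83%) and a peak with FLAG only at 8, 3 and 5 (background 4.23, 4.23 and 4.21%), of which the 8 at day 5 (10.3%, 5.29 to 19%) lay above the background. In both settings the background is over all protein-coding genes, with or without a peak in either arm. The share among marked genes was not counted in them, so an excess over this background is not set apart from the family being marked more often.

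At day 5 the genes with a FLAG peak only were Mrpl55, Mrps21 and Mrps22. At day 9 they were Mrpl20, Mrpl23 and Mrpl39, and at day 13 Mrpl54, Mrpl55, Mrps17 and Mrps22. The genes with an HDAC3-YF peak only were Mrpl45 and Mrps22 at day 9 and Mrpl30, Mrps10, Mrps18c and Mrps21 at day 13. Mrpl55 and Mrps22 had a peak with FLAG only on 2 days, and no gene had one with HDAC3-YF only on 2 days. Mrpl55 had scores of 54.8 in ESCs and 62.9 in MEFs, of 14.2, 9.32 and 7.34 with FLAG at days 5, 9 and 13, and of 12.4 with HDAC3-YF at day 9. Mrps22, a protein of the small subunit without a bacterial counterpart, had 45.1 in ESCs, 52.2 in MEFs, 29.2 and 12.6 with FLAG at days 5 and 13, and 8.15 with HDAC3-YF at day 9. Mrps21 had 62.9 and 136.6 in ESCs and MEFs, 14.6 and 25.5 with FLAG at days 5 and 9, and 38.6 and 6.95 with HDAC3-YF at days 9 and 13. Within their own lists these OSKM scores stood between percentile 8.4 and 33.2 for Mrpl55, 11.7 and 52.3 for Mrps22, and 3.48 and 60.0 for Mrps21, so that they ran from near the bottom to past the middle.

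Large and small subunit genes had overlapping intervals in each of these counts. H3K27ac was in all 8 lists at 36 of 51 large subunit genes (70.6%, interval 57.0 to 81.3%) and 19 of 27 small subunit genes (70.4%, 51.5 to 84.1%). A day 9 co-repressor site was at 27 (52.9%, 39.5 to 65.9%) and 14 (51.9%, 34 to 69.3%), and an ESC site at 10 (19.6%, 11 to 32.5%) and 2 (7.41%, 2.06 to 23.4%). Of the 47 genes for proteins of bacterial type, 3 had an ESC site (6.38%, 2.19 to 17.2%), namely Mrpl15, Mrpl17 and Mrpl47, against 8 of the 29 for proteins found only in mitochondrial ribosomes (27.6%, 14.7 to 45.7%), and these intervals overlap. Mrpl55 and Mrps36 were left out of this split. At day 9 the shares were 53.2% (39.2 to 66.7%) and 51.7% (34.4 to 68.6%). No test of either difference was made. Another protein-coding gene had an end within 1 kb for 44 of the 78 genes, and at those promoters a peak cannot be assigned to one gene. The 34 genes without such a neighbour had a day 9 site in 19 cases (55.9%, 39.5 to 71.1%), an ESC site in 6 (17.6%, 8.35 to 33.5%) and H3K27ac in all 8 lists in 22 (64.7%, 47.9 to 78.5%).

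The related gene groups gave some like shares and some that lay outside the interval of the mitochondrial family. The 78 cytosolic ribosomal protein genes carried H3K27ac in all 8 lists in 92.3% (interval 84.2 to 96.4%), above the interval of the mitochondrial family. They had a day 9 site in 53.8% and an ESC site in 16.7%. The 87 oxidative phosphorylation genes had 71.3%, 41.4% (31.6 to 51.9%) and 26.4% (18.3 to 36.6%). Of 66 other genes of mitochondrial translation 65 were matched by symbol, with 72.3%, 55.4% (43.3 to 66.8%) and 29.2% (19.6 to 41.2%). For the day 9 and ESC sites the intervals of these groups overlap those of the mitochondrial ribosomal protein genes.

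Within mitochondrial translation, the 5 ribosomal proteins with other symbols, Dap3, Gadd45gip1, Aurkaip1, Chchd1 and Ptcd3, carried H3K27ac in all 8 lists, with a day 9 site at 2 (Gadd45gip1 and Ptcd3) and an ESC site at 3 (Chchd1, Dap3 and Gadd45gip1). The 12 initiation, elongation, termination and recycling factors had H3K27ac in all 8 lists at 5 and a day 9 site at 7, among them Mtif2, Tsfm and Mrrf, and an ESC site at 4, among them Tufm, the elongation factor that brings transfer RNAs. Of 29 genes for ribosome assembly and ribosomal RNA, 24 had H3K27ac in all 8 lists, 18 a day 9 site and 5 an ESC site. The 18 include Polrmt, the mitochondrial RNA polymerase, Tfb2m, its initiation factor, and Lrpprc and Slirp, which stabilise mitochondrial messages. Polrmt was without H3K27ac at its ends in the 6 OSKM lists. Tfb2m was without it in both arms of day 9 and in the FLAG library of day 13. The 5 with an ESC site, Ddx28, Letm1, Mterf3, Noa1 and Tfb2m, had a day 9 site as well. Of 19 mitochondrial transfer RNA synthetases, 13 had H3K27ac in all 8 lists, 9 a day 9 site and 7 an ESC site. Aars2, Tars2 and Wars2 had no H3K27ac peak at an end in ESCs. The background for these counts is 32.7% for H3K27ac in all 8 lists, 21.5% for day 9 sites and 14.2% for ESC sites. Among always acetylated genes at large, co-repressor sites were at 56% for day 9 and 32.8% for ESCs. The roles hold few genes, and no test set them apart from either background.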

How the data were processed

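The authors aligned reads and called peaks before deposit. The submitters' processing notes name Bowtie2 2.2.0, MACS 1.4 and the build mm10, without settings, and controls or pooling are not given in the sources used here. Each of the 12 lists gives 200 bp intervals with a deposited score. In the H3K27ac lists this score stops at 200 and its scale is not stated. In the NCoR and SMRT lists it is signed and shared between the lists, so it was not read as a height. Read depth is unknown.

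Genes came from RefSeq (GRCm38.p6, the coordinates of mm10). That table gives no strand, so both annotated ends were used, with start sites from a RefSeq promoter table where given. A peak was counted where its centre lay within 1 kb (1000 bp). Shares carry 95% Wilson intervals over genes, made with Python 3.11.15 and scipy 1.17.1, and counts were tested on simulated peaks. The background is the same share over all protein-coding genes.

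The genes and gene lists were chosen with earlier results of these data known. Genes named were those without H3K27ac in ESCs or MEFs, those with an ESC co-repressor site, the first 12 in order with both co-repressors at day 9, those differing the same way between HDAC3-YF and FLAG on at least 2 days, the 6 highest and 6 lowest H3K27ac sums, and members sharing a gene end. Others were named after their values were seen. Alternatives were windows of 500 bp and 2.5 kb, any overlap, start sites alone, the top 50% or an equal number of H3K27ac peaks, sites of both co-repressors, and members without a neighbouring gene end.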

Additional observations from a re-analysis of the deposited data

Results flagged for a closer look

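At 2 genes the HDAC3-YF and FLAG libraries differed in opposite directions on different days, and the difference between days was not tested, since each arm and day is 1 library. Mrps22 had 1 H3K27ac peak fewer at its ends with HDAC3-YF than with FLAG at day 5 (-1), 1 more at day 9 (1) and 1 fewer at day 13 (-1). Mrps21 had 1 fewer at day 5 (-1) and 1 more at day 13 (1). The scores of the peaks present lay between 8.15 and 29.2 at Mrps22, and between 6.95 and 38.6 at Mrps21, in the OSKM lists.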

How the results depend on the processing

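No paired analysis was possible because each group has 1 library and no test between conditions was made. Over 24 results and 9 alternative settings, of which the union of ends and start sites and the 2 counts from MEFs to day 5 were added after seeing the data, 126 of 182 values stayed within the Wilson interval of the main share or within 1.5 times the main count, and 56 did not. Equal numbers of H3K27ac peaks (14251 per list) moved none, and any overlap with the window moved only the counts from MEFs to day 5. The co-repressor shares stayed within their intervals except when both proteins were required at day 9 (38.5%). H3K27ac shares rose to 98.7% in ESCs and in MEFs with a 2.5 kb window, to 97.4 and 94.9% for day 5 (FLAG, then HDAC3-YF here and below), 96.2 and 94.9% for day 9, and 87.2% in both arms of day 13. With start sites alone they were 98.6% in ESCs and MEFs, 97.1 and 92.8% for day 5, 97.1 and 95.7% for day 9 and 87.0% for HDAC3-YF of day 13. With either end or a start site they were 97.4% in ESCs and MEFs, 96.2 and 92.3% for day 5, and 96.2 and 94.9% for day 9. In the top 50% of each list they were 71.8% in both arms of day 5, 69.2 and 66.7% for day 9, and 50.0 and 59.0% for day 13. The cause of these moves was not tested beyond the construction of each setting, which adds or removes peaks.

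Counts between libraries were small and less stable. In the top 50% of each list, peaks with HDAC3-YF only were at 5, 8 and 8 genes at days 5, 9 and 13 and peaks with FLAG only at 5, 10 and 1, and 17 genes with a FLAG peak at day 9 had none at day 13. At day 5 the 500 bp window gave 8 genes with FLAG only, and it and the 2.5 kb window gave 1 with HDAC3-YF only. At day 9, 1 gene had an HDAC3-YF peak only with the 2.5 kb window, with start sites alone, with either end or a start site, and among the 34 genes without a neighbouring gene end. Among those 34, each count at day 13 was 2 genes with HDAC3-YF only and 2 with FLAG only, and 4 genes in each arm had a peak at day 9 and none at day 13, out of fewer genes. Genes with a peak in MEFs and none at day 5 numbered 2 with FLAG and 5 with HDAC3-YF. With FLAG they were 0 with the 500 bp window and with any overlap, 1 with the 2.5 kb window, with start sites alone and with either end or a start site, and 14 in the top 50%. With HDAC3-YF they were 8 with the 500 bp window, 3 with the 2.5 kb window and with any overlap, and 14 in the top 50%. Leaving out a replicate was not possible with 1 library per group, and the read depth that limits the lists is unknown.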
